A study of Mus musculus with 10 samples.

Results

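The non-coding genes described here are the genes of the count table that lie within the segment duplicated in Dp1Tyb mice, from Lipi to Zbtb21 on mouse chromosome 16 (GRCm38, positions 75540514 to 97962622, 22.42 Mb), and whose biotype in the GENCODE M21 annotation is not protein coding. They number 107 of the 250 genes of the table in the segment and of 43629 genes in all. The choice used position and biotype only and no expression value. RNA sequencing was carried out on the whole hippocampus of 5 Dp1Tyb and 5 wild-type (WT) mice, with 1 library per mouse. The labels give the age as 18 weeks and the strain as C57BL/6J.129P2 for both genotypes, and the methods of the study describe male littermates, backcrossed to C57BL/6J, that were slightly older. Dp1Tyb mice carry a direct duplication of the segment on one copy of chromosome 16, so that their cells hold 3 copies of each gene in it against 2 in WT littermates, which makes them a model of Down syndrome. In the strain name C57BL/6J is the host and 129P2 the donor, so the duplicated segment may carry other alleles than that of WT mice. The labels list no further allele and no treatment.

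Non-coding genes are a mixed class. Long non-coding RNAs are transcribed and often spliced and polyadenylated like mRNA, and some act as hosts for microRNAs, short RNAs that are cut from a hairpin in a longer transcript and repress mRNAs that match their seed. Processed pseudogenes are copies of spliced mRNAs that were inserted elsewhere in the genome, and small nuclear and small nucleolar RNAs guide splicing and RNA modification. Antisense RNAs are transcribed from the strand opposite a coding gene. The biotype TEC marks gene models for which the annotation still awaits experimental evidence. The libraries were made from polyadenylated RNA, which leaves out mature microRNAs and most small nuclear and nucleolar RNAs.

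Library totals ranged from 18227684 to 43692270 counts. The labelled tissue was checked against markers of hippocampal neurons, whose summed level was 984 to 1089 CPM in WT (a count relative to the total of its library, after TMM scaling) and 1060 to 1080 CPM in Dp1Tyb. Markers of the choroid plexus, an epithelium that adjoins the hippocampus, varied from 422 to 5313 CPM in WT and from 39.2 to 3832 CPM in Dp1Tyb, and none of the 8 genes on that list was called in the test used here. The part of such tissue in the values of the non-coding genes was not tested. The duplication itself was visible in the coding genes of the segment, of which 86 of the 93 tested were higher in Dp1Tyb, at a median log2 fold change (log2FC, Dp1Tyb over WT) of 0.54.

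Most of the 107 non-coding genes were at or near 0 in these libraries of polyadenylated RNA. The annotation lists 238 non-coding genes in the segment, and those absent from the count table could not be assessed. Of the 107, 61 had at least 1 count in some library, 26 had a count in every library, and 23 reached a mean of 0.3 CPM over the 10 libraries, the level required for testing. Among coding genes of the segment, 112 of 143 had a count and 93 reached that level. The 17 TEC models gave 6 tested genes, the 10 antisense genes 5, the 6 processed transcripts 4, the 12 lincRNAs 3 and the 16 processed pseudogenes 3, and the remaining 2 were the polymorphic pseudogene Mx2 and the sense intronic gene Gm16310. None of the 14 miRNA, 11 snRNA and 11 snoRNA genes reached it, and 10 of the snRNA and 9 of the snoRNA genes had no count at all. Together the 107 genes took between 0.0045% and 0.0067% of the counts of a library. A total of 36 of the 107 overlap a coding gene on either strand, as do 9 of the 23 tested.

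**Figure D1:**
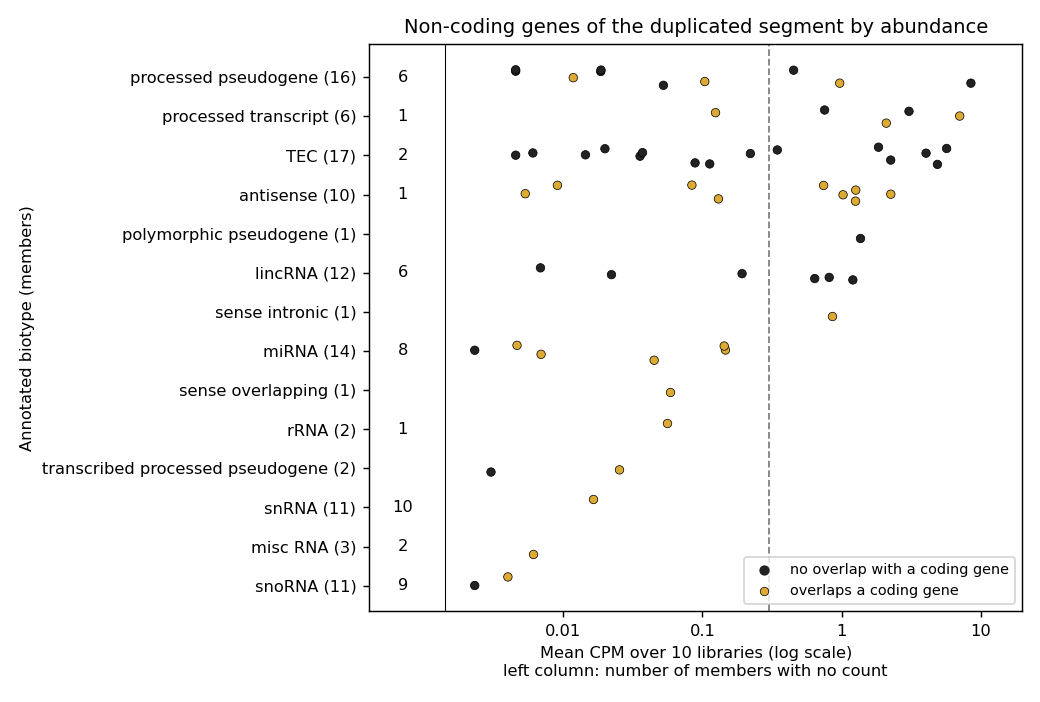
Mean CPM over the 10 libraries of each of the 107 non-coding genes (points, log scale), by annotated biotype, with the number of genes without any count in the left column and the level of 0.3 CPM as a dashed line. The points to the right of the line are the 23 tested genes, and the miRNA, snRNA and snoRNA genes all lie to its left or have no count.

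Of the 23 tested non-coding genes, 20 (87.0%) had a log2FC above 0 and 3 below, against 49.6% above 0 over all tested genes. Counts of higher and lower genes refer to this sign throughout. The 20 include A930006K02Rik at 6.69e-05, whose mean was 0.750 CPM in Dp1Tyb and 0.761 CPM in WT. A total of 5 passed the test for a difference, and all 5 rose (edgeR's quasi-likelihood test with Benjamini-Hochberg adjustment over 17648 genes, adjusted p under 0.05): C130023A14Rik, 9430053O09Rik, 9430092D12Rik and Gm38071, TEC models within the span of the microRNA host gene Mir99ahg, and Mx2, an interferon-induced GTPase of the antiviral Mx family that the annotation lists as a polymorphic pseudogene. These 5 are 21.7% of the tested non-coding genes, whereas 1.10% of all tested genes were called in either direction and 0.873% were called as higher. The 4 TEC models lie within the span of 1 gene and may share reads, so they cannot be counted as independent. Outside that span, 1 of 16 tested non-coding genes was called (6.25%). The same 5 genes were those with every Dp1Tyb mouse above every WT mouse. Across all tested genes, 2.59% showed no overlap with Dp1Tyb higher and 3.58% showed none in either direction. The median log2FC of the 23 was 0.31, or 1.24-fold, against −0.0014 over all tested genes.

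The coding genes of the segment are the closest group for comparison. Their median log2FC was 0.54, and 63 of 93 were called, all higher. They were also more abundant, with a median level of 27.4 CPM against 1.27 CPM for the non-coding genes, and their fold changes had a smaller standard error, at a median of 0.072 against 0.19 on the log2 scale. For a comparison at like counts, chosen after the values were seen, the 23 coding genes of the segment with a mean no higher than that of the most abundant non-coding gene were taken. Of these, 18 were higher and 2 were called, with a median log2FC of 0.41 and a median standard error of 0.24. The difference between coding and non-coding genes was not tested.

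The precision of each non-coding gene can be read from its 95% interval. In 17 of the 23 genes the interval held a 1.5-fold increase, the ratio of the copy numbers, and in 13 it held no difference. It held both in 8 genes, in which these libraries do not distinguish the 2 values. In 5 genes the whole interval lay below 1.5-fold, and in Mx2 the whole interval lay above it. The 5 include the pseudogene Gm9843, whose counts are uncertain as described below. Among the 93 coding genes, 14 intervals lay below 1.5-fold and 12 above. Copy number and any difference in alleles of the segment between the genotypes cannot be told apart in these values.

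**Figure D2:**
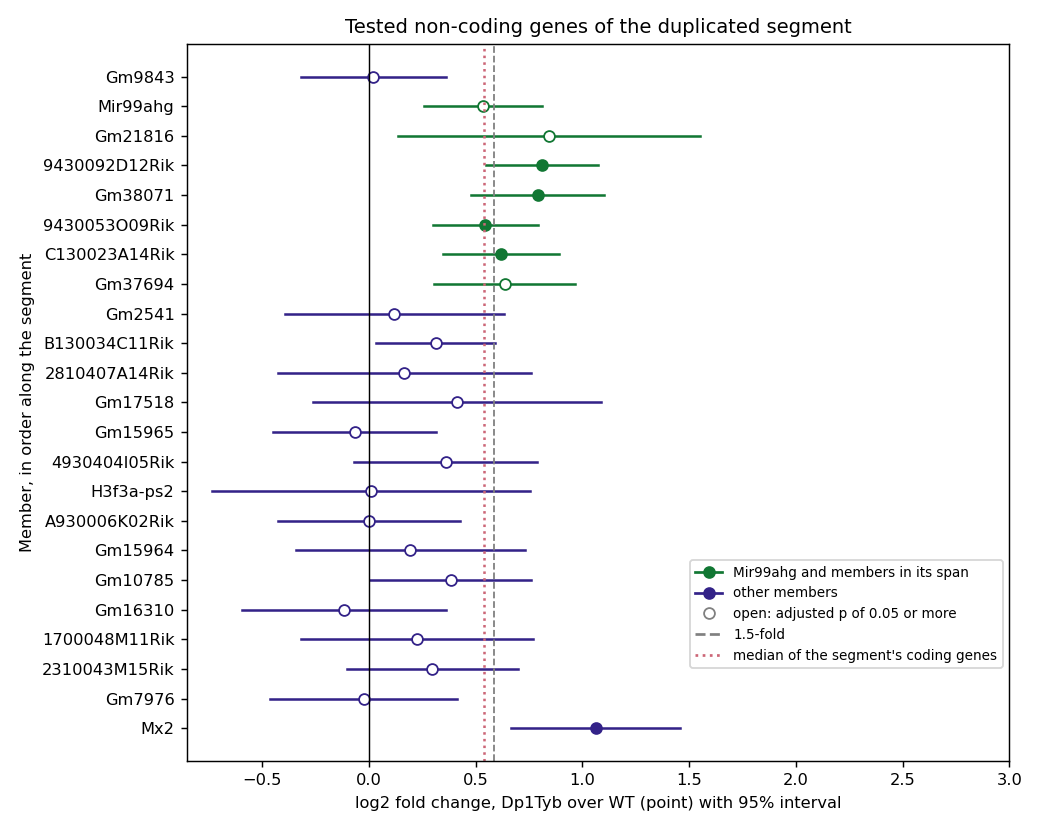
Log2FC of the 23 tested non-coding genes (points) with 95% intervals (bars), in order along the segment. Filled points mark the 5 genes with an adjusted p under 0.05, of which 4 belong to the run of 7 genes at Mir99ahg (green), whose points lie between 0.54 and 0.84.

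Mir99ahg (ENSMUSG00000090386, chromosome 16, positions 77236317 to 77773427, plus strand) is a long non-coding RNA that hosts the microRNAs miR-99a, let-7c and miR-125b. Its span of 537.1 kb holds 17 further non-coding genes of the table, 14 of them TEC models and 3 miRNA genes, of which 15 lie on its own strand and 2 on the other. Together these 18 genes took 48.59% of all counts of the 107. Of the 18, 7 were tested, all 7 were higher in Dp1Tyb and 4 were called, with a median log2FC of 0.64. Outside the span, 13 of 16 tested non-coding genes were higher and 1, Mx2, was called, with a median of 0.18. The division of the genes by this span was made after the values were seen.

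In the order of replicates 1 to 5, WT mice had 6.43, 7.36, 4.23, 5.21 and 5.62 CPM of Mir99ahg, and Dp1Tyb mice had 9.50, 7.31, 8.07, 8.39 and 8.63 CPM. The genotypes overlapped through WT replicate 2, which lay just above Dp1Tyb replicate 2. The log2FC was 0.54 ± 0.13 SE and did not pass the threshold (adjusted p = 0.0676), although it did so at 0.0302 without WT replicate 2 and at 0.00508 by DESeq2. Its span overlaps the coding gene Gm11146 on the other strand, which had a mean of 0.0058 CPM.

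The TEC models do not share exon bases with Mir99ahg on its strand and lie in its introns or on the other strand. 9430092D12Rik (ENSMUSG00000102205, positions 77413643 to 77414916, plus strand) had 2.85, 3.12, 3.43, 2.66 and 2.69 CPM in WT and 4.87, 5.31, 6.27, 5.07 and 4.27 CPM in Dp1Tyb. All Dp1Tyb mice were above all WT mice, with a mean of 5.16 ± 0.732 CPM against 2.95 ± 0.321 CPM (SD, n = 5). It rose by a log2FC of 0.81 ± 0.12 SE (adjusted p = 0.00327), and this call held in each of the 10 fits that left out 1 library.

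Gm38071 (ENSMUSG00000103916, positions 77416624 to 77420001, plus strand) begins about 3 kb from the start of the previous model. WT mice had 1.5, 1.37, 1.45, 1.24 and 1.16 CPM, and Dp1Tyb mice had 1.98, 2.07, 2.32, 2.54 and 2.82 CPM, so that the lowest Dp1Tyb mouse exceeded the highest WT mouse. The log2FC was 0.79 ± 0.15 SE (adjusted p = 0.0169, and 0.0571 without WT replicate 4). Gm38071 shares 751 exon bases with 9430053O09Rik, which lies on the opposite strand. The strand setting of the counting was not stated, so it is not known how reads from these bases were counted for the 2 genes.

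9430053O09Rik (ENSMUSG00000102344, positions 77419251 to 77421820, minus strand) had 4.67, 3.70, 4.17, 3.30 and 4.09 CPM in WT and 5.79, 5.27, 5.35, 6.79 and 5.81 CPM in Dp1Tyb. The genotypes did not overlap. The log2FC of 0.55 ± 0.11 SE passed the threshold (adjusted p = 0.0373) but the call was not stable. The adjusted p was between 0.0594 and 0.0933 in 9 of the 10 fits that left out 1 library and 0.0302 in the other, without WT replicate 1.

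C130023A14Rik (ENSMUSG00000102854, positions 77646340 to 77649426, plus strand) begins within the last 4 bases of the Mir125b-2 hairpin. Its values were 4.14, 4.41, 5.08, 4.60 and 4.27 CPM in WT and 5.72, 6.19, 7.19, 9.03 and 6.36 CPM in Dp1Tyb. No Dp1Tyb mouse fell into the WT range, and Dp1Tyb replicate 4 was the highest. The log2FC was 0.62 ± 0.13 SE (adjusted p = 0.0321). The call was lost in 6 of the 10 fits, without WT replicates 1, 2, 4 or 5 and without Dp1Tyb replicates 2 or 3, with adjusted p up to 0.0857, and also with limma voom (0.0530).

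The other tested models of the span were not called. Gm37694 (ENSMUSG00000102562, positions 77685277 to 77687409, plus strand) had 1.54, 1.70, 1.71, 2.30 and 1.58 CPM in WT and 3.25, 2.53, 2.20, 2.87 and 2.91 CPM in Dp1Tyb. WT replicate 4 stood above the other WT mice and above Dp1Tyb replicate 3, and the log2FC of 0.64 ± 0.15 SE had an adjusted p of 0.0665, or 0.0397 without that library. Gm21816 (ENSMUSG00000096870, positions 77400030 to 77403135, plus strand) was the least abundant tested gene, at a mean of 0.346 CPM. It had 0.376, 0.083, 0.321, 0.242 and 0.186 CPM in WT and 0.438, 0.492, 0.439, 0.332 and 0.545 CPM in Dp1Tyb. The genotypes overlapped through WT replicate 1 and Dp1Tyb replicate 4, and the log2FC was 0.84 ± 0.33 SE (adjusted p = 0.279).

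Per kilobase of exon, 5 of the 14 TEC models of the span were at higher levels than the host transcript and 9 were lower. Mir99ahg, with 14303 exon bases, had a mean of 0.495 RPKM (CPM per kilobase of exon). The level was 3.18 RPKM in 9430092D12Rik, 1.90 RPKM in 9430053O09Rik, 1.85 RPKM in C130023A14Rik and 1.06 RPKM in Gm37694. The other 10 TEC models of the span ranged from 0 in Gm37241 to 0.546 RPKM in Gm38071. The 5 TEC models above the host transcript lay at 2 places, near 180 kb and between 410 and 451 kb from the start of Mir99ahg. Outside these places, the short Mir99a gene had 2.25 RPKM, from 46 counts over 65 exon bases.

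**Figure D3:**
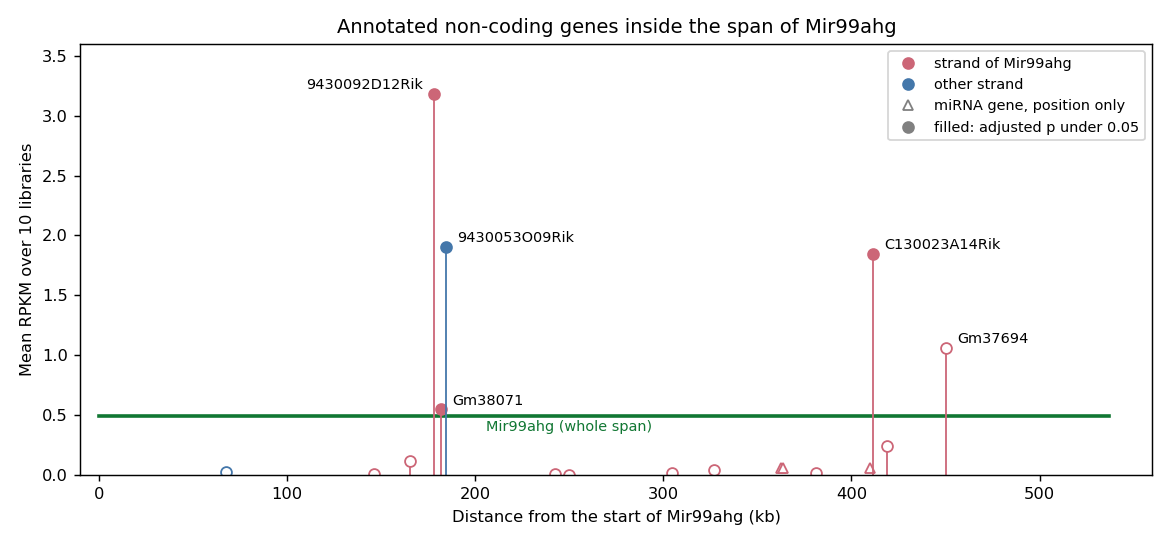
Mean level over the 10 libraries (RPKM) of each TEC model inside the 537.1 kb span of Mir99ahg, by distance from its start, with the level of Mir99ahg as a line and the miRNA genes marked by position only. The tallest model is 9430092D12Rik at 3.18 RPKM, and the filled points are the 4 called models.

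Of the 5 most abundant non-coding genes after the pseudogene Gm9843, 4 belong to this span. The plot of single mice shows the separation of the genotypes in the called genes beside the overlap in their neighbours in abundance.

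**Figure D4:**
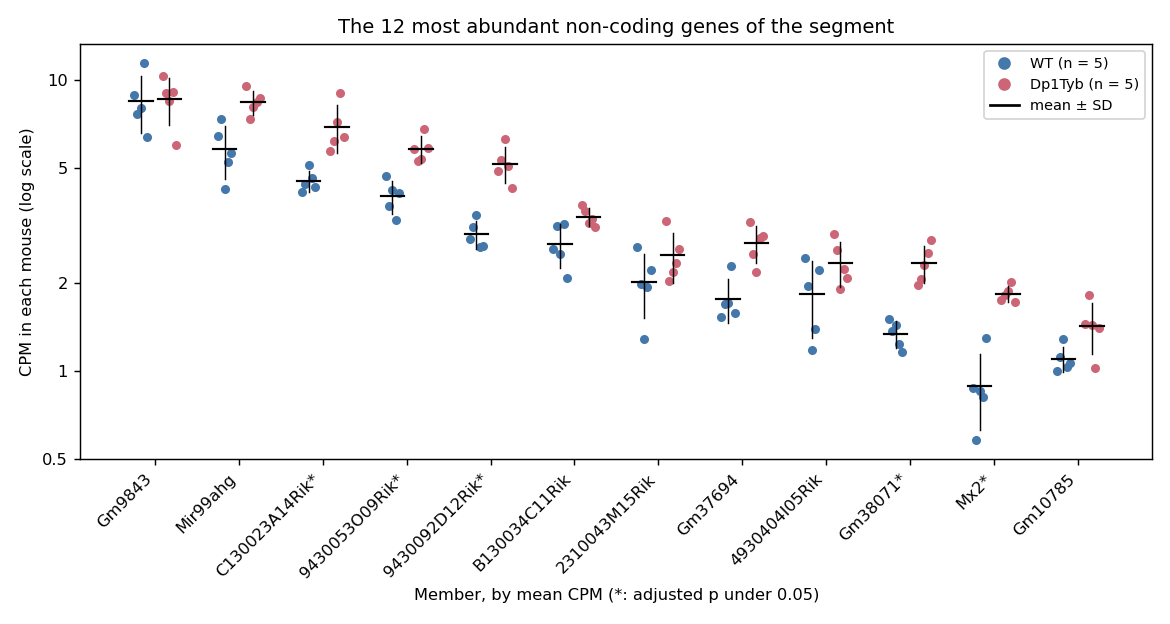
CPM in each of 5 WT (blue) and 5 Dp1Tyb (red) mice for the 12 most abundant non-coding genes of the segment (log scale), with the mean and SD of each group. The Dp1Tyb and WT points do not overlap in the 5 genes with an asterisk and overlap in the other 7, with Gm9843 the most abundant at 8.52 CPM.

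The microRNA genes themselves were nearly without counts, and their mature forms were not measured. Of the 14 miRNA genes, Mir99a had 46 counts over the 10 libraries, Gm22933 had 39, Mirlet7c-1 had 12, Gm22745 had 3, and Gm28003 and Gm27833 had 1 each. Gm22923, Mir125b-2, Gm25025, Mir155, Mir6367, Gm27773, Mir802 and Gm23062 had 0 counts. RefSeq held mature sequences for 6 of the 14 genes (GRCm38.p6). One mature form for each of the 6 is shown because the seed, here in capitals (bases 2 to 8), is the part that pairs with target mRNAs.

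mmu-miR-99a-5p: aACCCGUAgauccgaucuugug
mmu-let-7c-5p: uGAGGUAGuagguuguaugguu
mmu-miR-125b-5p: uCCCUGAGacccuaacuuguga
mmu-miR-6367: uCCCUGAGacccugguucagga
mmu-miR-155-5p: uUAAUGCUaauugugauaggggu
mmu-miR-802-5p: uCAGUAACaaagauucauccuu

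The first 3 lie in introns of Mir99ahg, at chr16:77598940-77598961, chr16:77599672-77599693 and chr16:77646279-77646300 on the plus strand. The seed of miR-125b-5p is also that of miR-6367, at chr16:91527468-91527489 on the minus strand of the same segment, whose hairpin gene overlaps no annotated gene. The seed of let-7c-5p occurs in 10 other mature mouse names in RefSeq and that of miR-99a-5p in 2. The seeds of miR-155-5p and miR-802-5p occurred in no other name. The Mir99a gene had 11 counts in WT libraries and 35 in Dp1Tyb libraries. By library these were 5, 2, 1, 0 and 3 against 16, 4, 4, 9 and 2, which overlap. Mir155hg, the host transcript of miR-155, had 20 counts in WT and 36 in Dp1Tyb, at a mean of 0.193 CPM, under the level for testing.

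Pseudogenes made up 19 of the 107 non-coding genes, and 4 of them were tested. The most abundant tested gene of all was Gm9843 (ENSMUSG00000050299, positions 76403251 to 76403652, minus strand), a processed pseudogene of Fau, which encodes a ubiquitin-like protein fused to ribosomal protein S30. WT mice had 8.84, 7.61, 8.03, 11.4 and 6.36 CPM, and Dp1Tyb mice had 10.3, 9.04, 8.47, 9.09 and 6.00 CPM. The ranges of the genotypes overlapped almost entirely, and the log2FC was 0.02 ± 0.16 SE (adjusted p = 0.967), with a 95% interval that ended at 1.28-fold. All 402 bases of the Gm9843 transcript match the Fau transcript without a mismatch, so a read from within this stretch cannot be assigned to either gene by its sequence. The first 150 bases are shown because they are the same in both genes.

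Gm9843 (chr16:76403503-76403652, minus strand): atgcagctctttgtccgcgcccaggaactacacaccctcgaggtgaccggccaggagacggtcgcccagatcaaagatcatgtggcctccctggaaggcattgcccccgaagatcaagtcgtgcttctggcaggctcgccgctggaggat

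Fau itself lies on chromosome 19, outside the segment, at a mean of 94.2 CPM and a log2FC of −0.19 ± 0.074 SE (adjusted p = 0.271). H3f3a-ps2 (ENSMUSG00000081176, positions 91114189 to 91114599, minus strand) derives from H3f3a, a gene on chromosome 1 for the replacement histone H3.3. It had 0.439, 0.416, 0.589, 0.666 and 0.139 CPM in WT and 0.530, 0.316, 0.280, 0.604 and 0.545 CPM in Dp1Tyb. The groups overlapped, and the log2FC was 0.01 ± 0.35 SE (adjusted p = 0.994), while H3f3a was at 41.1 CPM and −0.17 ± 0.078 SE (adjusted p = 0.350). The pseudogene differs from its parent at 5 of 411 aligned bases, and 4 of these fall within the stretch of 240 bases shown here, where capitals mark the bases that differ.

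H3f3a-ps2 (chr16:91114263-91114502, minus strand): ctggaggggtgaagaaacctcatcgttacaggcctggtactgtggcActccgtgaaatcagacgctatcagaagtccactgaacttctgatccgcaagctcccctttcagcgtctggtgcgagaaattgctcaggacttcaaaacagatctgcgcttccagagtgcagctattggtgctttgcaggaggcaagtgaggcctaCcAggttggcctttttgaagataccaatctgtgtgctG
H3f3a: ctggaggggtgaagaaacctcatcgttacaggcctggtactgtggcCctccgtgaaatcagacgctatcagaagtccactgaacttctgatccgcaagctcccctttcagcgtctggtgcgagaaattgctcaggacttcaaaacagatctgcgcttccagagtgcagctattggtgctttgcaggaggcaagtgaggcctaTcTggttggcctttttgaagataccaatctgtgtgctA

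Gm2541 (ENSMUSG00000089698, positions 85553233 to 85553943, minus strand) matches Dnajb6, a co-chaperone gene on chromosome 5, at 98.3% over 722 aligned bases, with 12 gap bases and 0 mismatches. It ranged from 0.697 to 1.22 CPM in WT and from 0.664 to 1.52 CPM in Dp1Tyb, with a log2FC of 0.12 ± 0.24 SE (adjusted p = 0.855). It lies within the coding gene Cyyr1 on the same strand, with which it shares 165 exon bases, and Cyyr1 had a log2FC of 0.47 ± 0.063 SE (adjusted p = 0.00104). The matches are not confined to the named parents. At 95% identity or more over at least 75 bases, H3f3a-ps2 matched transcripts of 15 other genes and Gm2541 those of 7, with the parents included. Counts of all 3 processed pseudogenes are uncertain for these reasons, since reads that aligned to several places were discarded by the authors. Without these 3, the median log2FC of the tested non-coding genes was 0.37.

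Mx2 (ENSMUSG00000023341, positions 97535308 to 97560900, plus strand) lies near the distal end of the segment. WT mice had 0.878, 0.582, 0.856, 0.817 and 1.30 CPM, and Dp1Tyb mice had 1.75, 1.83, 1.88, 2.02 and 1.73 CPM. The Dp1Tyb mice lay close together and all above the WT mice, of which replicate 5 was the highest. Mx2 rose 2.09-fold, with a 95% interval from 1.59 to 2.75 (log2FC 1.06 ± 0.18 SE, adjusted p = 0.0112), and was called in all 10 fits that left out 1 library. Its closest relative by sequence is Mx1 in the same segment, at 94.8% identity over 920 aligned bases. Mx1 was at a mean of 0.365 CPM with a log2FC of 0.09 ± 0.33 SE (adjusted p = 0.928).

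Antisense genes and non-coding genes whose starts adjoin a coding gene form the next group. None of the 5 tested antisense genes was called by edgeR or DESeq2, and 4 were higher in Dp1Tyb. By edgeR, 1 of the 5 had an unadjusted p under 0.05, as had 14.2% of all tested genes. The span of each overlaps a coding gene on the opposite strand that was at least 7.29 times as abundant in CPM and was called as higher in Dp1Tyb. The exon bases shared with coding genes were 443 in 2310043M15Rik, 444 in Gm10785, 1014 in Gm15964 and 0 in both Gm15965 and 1700048M11Rik. 2310043M15Rik (ENSMUSG00000097768, positions 93792136 to 93794901, minus strand) lies opposite Dop1b and had 2.66, 2.0, 1.28, 1.94 and 2.23 CPM in WT and 3.27, 2.04, 2.20, 2.35 and 2.63 CPM in Dp1Tyb. The groups overlapped, with a log2FC of 0.30 ± 0.19 SE (adjusted p = 0.496), whereas Dop1b, at 151 CPM, had a log2FC of 0.52 ± 0.050 SE (adjusted p = 4.39e-05).

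Gm15965 (ENSMUSG00000085279, positions 90983907 to 90987237, plus strand) and Synj1, which encodes the synaptic phosphatase synaptojanin 1, are the pair with the largest ratio of levels. Synj1 was 742 times as abundant in CPM and had a log2FC of 0.64 ± 0.044 SE (adjusted p = 1.74e-06). Gm15965 ranged from 0.803 to 1.33 CPM in WT and from 0.879 to 1.18 CPM in Dp1Tyb, with a log2FC of −0.07 ± 0.18 SE (adjusted p = 0.898) and an interval that ended at 1.24-fold. The Dp1Tyb range of Gm15965 thus lay within the WT range.

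Gm10785 (ENSMUSG00000085169, positions 91688898 to 91715642, plus strand) spans parts of Cryzl1 and of a gene annotated as Atp5o, and had a log2FC of 0.38 ± 0.17 SE (adjusted p = 0.345). Atp5o is the name of a subunit of mitochondrial ATP synthase. The annotation gives this name to separate coding genes, not all of which overlap Gm10785. Gm15964 (ENSMUSG00000085337, positions 91611468 to 91623861, plus strand) shares 1014 exon bases with coding genes opposite it, Dnajc28 and the purine synthesis gene Gart, and had 0.20 ± 0.25 SE (adjusted p = 0.756). 1700048M11Rik (ENSMUSG00000085637, positions 92308716 to 92312468, minus strand) lies opposite Smim11 and had 0.23 ± 0.25 SE (adjusted p = 0.719). The intervals of these 3 genes all held 1.5-fold. The log2FC values of the coding genes opposite them were 0.54 for Cryzl1, 0.68 for Dnajc28, 0.62 for Gart and 0.49 for Smim11, each called. The value found by name for Atp5o was 0.57, also called, and may belong to a gene that does not overlap Gm10785.

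Over all 9 tested non-coding genes that overlap a coding gene, 7 were higher and none was called by edgeR or limma voom, while DESeq2 called 1, Mir99ahg. By edgeR, 2 of the 9 had an unadjusted p under 0.05, as had 14.2% of all tested genes. The 9 genes had a median log2FC of 0.23. Over the 14 that overlap none, 13 were higher and 5 were called, with a median of 0.48. The 2 groups were not tested against each other, and 6 of the 14 lie in the span of Mir99ahg. Gm16310 (ENSMUSG00000086331, positions 92094568 to 92096490, plus strand), which lies within Mrps6 on the same strand without sharing an exon base, was the lowest of all at −0.12 ± 0.22 SE (adjusted p = 0.849). Its 95% interval ended at 1.29-fold, and Mrps6, a mitochondrial ribosomal protein gene, had 0.52 ± 0.14 SE (adjusted p = 0.102).

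The starts of 4 tested non-coding genes lie within 200 bases of the start of a coding gene on the other strand, a head-to-head arrangement. B130034C11Rik (ENSMUSG00000093606, positions 87495999 to 87504033, plus strand) starts 126 bases from Cct8, a subunit of the chaperonin that folds actin and tubulin. Gm17518 starts 108 bases from Mis18a, which acts in centromere assembly, Gm10785 starts 128 bases from Donson, a replication fork gene, and 4930404I05Rik starts 59 bases from Synj1 with overlapping ends. The stretches between the annotated starts of the first 3 pairs are printed here from RefSeq (GRCm38.p6, plus strand), with the dinucleotide CG in capitals. They are shown because, by these starts, both genes of a pair are transcribed away from them. The RefSeq starts of Gm17518 lie inside its stretch, and that of B130034C11Rik lies outside, 74 bases from the annotated start.

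B130034C11Rik/Cct8 (chr16:87495874-87495998): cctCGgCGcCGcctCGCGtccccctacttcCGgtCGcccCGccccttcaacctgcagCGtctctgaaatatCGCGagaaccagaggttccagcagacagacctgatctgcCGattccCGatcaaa
Gm17518/Mis18a (chr16:90727405-90727511): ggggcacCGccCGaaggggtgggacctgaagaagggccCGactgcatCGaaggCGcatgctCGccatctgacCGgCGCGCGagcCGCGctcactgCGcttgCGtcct
Gm10785/Donson (chr16:91688771-91688897): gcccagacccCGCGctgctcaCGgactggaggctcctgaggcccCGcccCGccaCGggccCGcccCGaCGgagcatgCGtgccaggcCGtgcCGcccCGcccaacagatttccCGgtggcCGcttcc

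These stretches hold 13, 14 and 15 CG dinucleotides. In RefSeq promoters of 300 bases, the count was 28 for B130034C11Rik, 27 to 28 for Gm17518, 33 for 4930404I05Rik and 42 for Gm10785, against a median of 7 over 32851 mouse promoters. The RefSeq starts of these 4 genes lie 0 to 92 bases from the annotated starts. A sequence was found for 18 of the 107 non-coding genes, and the counts are a description of these only.

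The 4 head-to-head non-coding genes had log2FC values between 0.31 and 0.41. None was called by edgeR or DESeq2, and 2 had an unadjusted p under 0.05 by edgeR, as had 14.2% of all tested genes. B130034C11Rik had 2.63, 3.16, 2.52, 3.21 and 2.09 CPM in WT and 3.71, 3.55, 3.24, 3.32 and 3.13 CPM in Dp1Tyb. Only Dp1Tyb replicate 5 fell into the WT range, and the log2FC was 0.31 ± 0.13 SE (adjusted p = 0.303), with an interval from 1.02 to 1.51-fold. Cct8, at 197 CPM, had a log2FC of 0.73 ± 0.042 SE (adjusted p = 7.56e-07), or 1.65-fold.

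4930404I05Rik (ENSMUSG00000087354, positions 91011249 to 91016743, plus strand) had 2.44, 1.95, 1.18, 1.39 and 2.23 CPM in WT and 2.95, 2.60, 1.92, 2.23 and 2.09 CPM in Dp1Tyb. The groups overlapped, with a log2FC of 0.36 ± 0.20 SE (adjusted p = 0.437). It shares 1202 exon bases with coding genes on the other strand, and Paxbp1, which it also overlaps, had 0.60 ± 0.036 SE (adjusted p = 7.56e-07). Gm17518 (ENSMUSG00000097757, positions 90727512 to 90729120, plus strand) had 0.41 ± 0.31 SE (adjusted p = 0.576), beside 0.51 ± 0.095 SE for Mis18a (adjusted p = 0.0202). Donson had 0.62 ± 0.086 SE (adjusted p = 0.00184). In all 4 pairs the non-coding value was the lower, and neither the differences nor the share of reads that a strand-blind count would move between such genes were tested.

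**Figure D5:**
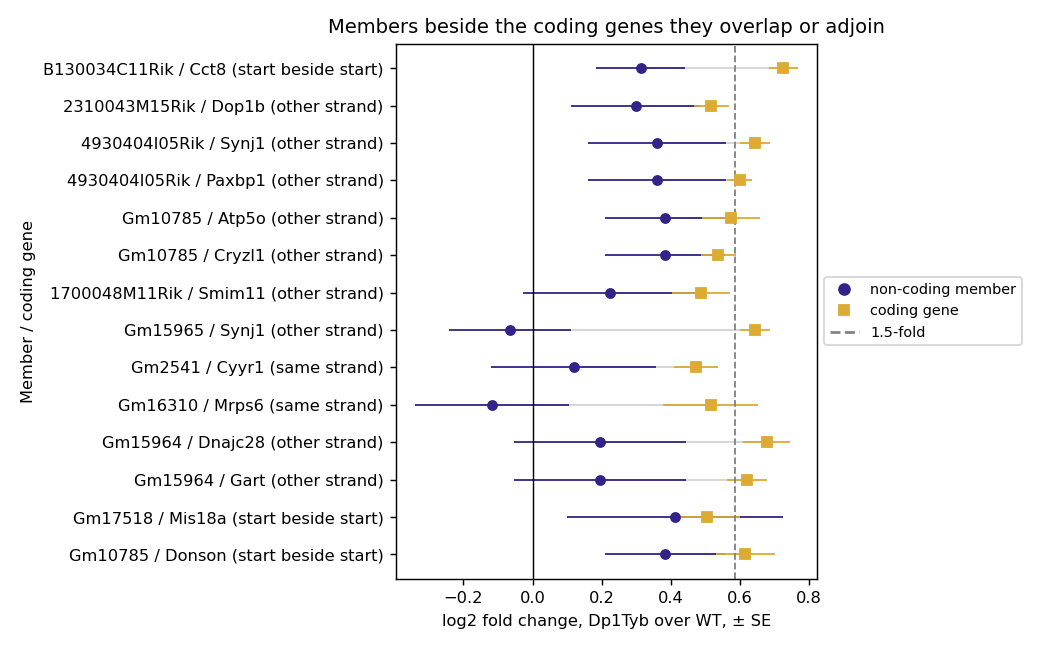
Log2FC with SE of the tested non-coding genes (circles) beside the tested coding genes that they overlap or whose start lies within 200 bases of theirs (squares), with 1.5-fold as a dashed line. In each of the 14 pairs plotted the circle lies to the left of the square, with the widest gaps for Gm15965 and Synj1 and for Gm16310 and Mrps6. Some genes recur in several pairs, so the pairs are not independent. Atp5o was matched by name and may not be the gene that Gm10785 overlaps.

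The remaining tested genes lie apart from coding genes. 2810407A14Rik (ENSMUSG00000055972, positions 87784075 to 87839293, plus strand) is a lincRNA that ranged from 0.457 to 1.76 CPM in WT and from 1.13 to 1.68 CPM in Dp1Tyb, with a log2FC of 0.17 ± 0.28 SE (adjusted p = 0.821). Gm7976 (ENSMUSG00000097551, positions 95016370 to 95067017, plus strand), a lincRNA 18669 bases from the potassium channel gene Kcnj6, had −0.02 ± 0.20 SE (adjusted p = 0.973). A930006K02Rik (ENSMUSG00000084866, positions 91465025 to 91470128, plus strand) lies 15110 bases from Ifnar1, a subunit of the type I interferon receptor, and shares 149 exon bases with the non-coding gene Gm49626. It had a fold change of 1.00 (95% interval 0.744 to 1.34, adjusted p = 1.00).

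The ranges of the genotypes overlapped widely in both of the last genes. Gm7976 ranged from 0.595 to 1.04 CPM in WT and from 0.634 to 0.959 CPM in Dp1Tyb, and A930006K02Rik from 0.457 to 1.07 CPM and from 0.454 to 1.02 CPM. The coding genes beside them had log2FC values of 0.53 ± 0.090 SE for Kcnj6 (adjusted p = 0.00921) and 0.78 ± 0.040 SE for Ifnar1 (adjusted p = 2.70e-07). With Gm9843, Gm15965 and Gm16310, these 2 complete the 5 non-coding genes whose interval lay wholly below 1.5-fold. The interval of Gm9843 is uncertain, because its sequence does not separate its reads from those of Fau, which lies outside the segment.

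Below the level for testing, 38 non-coding genes had at least 1 count. The gene nearest to the level of 0.3 CPM from below was the TEC model 9530003O04Rik (ENSMUSG00000102267), at 0.221 CPM, which lies in the span of Mir99ahg. It had 5, 5, 5, 3 and 1 counts in WT and 12, 6, 5, 16 and 6 in Dp1Tyb, and the nearest from above was Gm21816 at 0.346 CPM. Gm31258, a TEC model on the strand opposite Mir99ahg, had 2, 0, 1, 0 and 0 counts in WT and 10, 3, 1, 7 and 4 in Dp1Tyb. Single counts of this size allow no statement on one gene.

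Summed over all genes below the level, WT libraries held 1.34 ± 0.121 CPM (SD, n = 5) with a range of 1.25 to 1.55, and Dp1Tyb libraries held 2.36 ± 0.582 CPM with a range of 1.52 to 3.11. The ranges overlapped between WT replicate 3 and Dp1Tyb replicate 3. These sums rest on 28 to 43 counts per WT library and 38 to 103 per Dp1Tyb library. The number of non-coding genes with any count was 35 to 39 in WT and 41 to 47 in Dp1Tyb libraries, without adjustment for the depth of the libraries, which was 18227684 to 33092953 counts in WT and 22130474 to 43692270 in Dp1Tyb. The tested genes summed to 43.5 to 49.4 CPM in WT and 56.8 to 63.8 CPM in Dp1Tyb, and the groups did not overlap.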

How the data were processed

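RNA from the whole hippocampus was sequenced as stranded, poly(A)-selected paired-end libraries. According to the study's methods, the authors trimmed adapters with TrimGalore, aligned to GRCm38 with TopHat2 (version 2.0.12 in the submitters' processing notes), discarded reads with several alignments and counted reads per gene with HTSeq. The strand setting and the annotation release are not given in the sources used here, so genes that overlap another are uncertain. The deposited counts are whole reads per gene without normalization and were the values analysed. The deposited normalized table and the authors' DESeq2 1.6.3 comparison, which holds fold changes and p-values, were not used. Positions and biotypes came from GENCODE M21 by gene ID, which matched 42548 of 43629 genes.

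edgeR 4.0.16 in R 4.3.3 was run with TMM factors, a minimum mean of 0.3 CPM over the 10 libraries, the quasi-likelihood test, no covariates and Benjamini-Hochberg adjustment. SE is the size of the log2 fold change divided by the square root of the test statistic, and 95% intervals use the moderated degrees of freedom. RPKM was computed from exon union lengths. Closest sequences were found with blastn among the annotated transcripts. The script was tested on simulated counts. Every tested gene is named, with values per mouse for the 10 most abundant, the called ones and those nearest to 0.3 CPM. Values for further genes, the divisions by the span of Mir99ahg and by head-to-head starts, and the comparison with low coding genes were chosen after values were seen. The genes and lists were chosen with earlier results of these data known. Alternatives were DESeq2 1.42.0, limma voom 3.58.1, other scalings, other filters and the omission of single libraries. The labels give no batch or date, so a batch cannot be told apart from the genotype. Nothing in the labels beyond the sample names separates the mice of a group, so p-values measure the spread between these libraries.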

Additional observations from a re-analysis of the deposited data

Results flagged for a closer look

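Among 50 groups of 5 libraries examined (each tested non-coding gene in each genotype and 2 per-library sums), 3 held a library whose gap to its nearest neighbour took more than 0.71 of the range of its group. Chance flags about 1 in 20 such groups, or 2.5 of 50. In WT, replicate 4 had 2.30 CPM of Gm37694 against 1.54 to 1.71 in the other 4 (a gap of 0.769 of the range), and without it the log2 fold change of this gene was 0.76 with an adjusted p of 0.0397 (edgeR). In Dp1Tyb, replicate 3 had 1.68 CPM of 2810407A14Rik against 1.13 to 1.24 in the others (0.796 of the range). In WT, replicate 3, the library with the fewest counts, summed to 1.55 CPM over the genes below the level for testing against 1.25 to 1.30 in the others (0.839 of the range).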

How the results depend on the processing

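Scaling hardly moved the results. The number of called non-coding genes was 5 with RLE size factors, with TMM factors computed without the segment and with filterByExpr, 4 with limma voom and 7 with DESeq2, which added Mir99ahg and Gm37694. Over all genes DESeq2 called 519 against 195. Without a filter, 53 of 61 non-coding genes were higher and 8 lower, at a median log2 fold change of 0.64, or 0.36 when the 14 genes with a genotype at 0 counts were set to a bound from a floor of 3 counts over the group, or to 0 where both genotypes were at or under it. The genes that overlap no coding gene gave 13 higher, 1 lower and a median of 0.48. Those that overlap no gene at all gave 1 called, 6 higher, 1 lower and a median of 0.17, and those outside the span of Mir99ahg, chosen after seeing the data, gave 1 called, 13 higher and a median of 0.18. These sets are smaller by construction.

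Leaving out 1 library at a time gave 3 to 4 called non-coding genes (3 without WT replicates 4 or 5 or Dp1Tyb replicates 2 or 3), 17 to 21 higher, 2 to 6 lower, a median of 0.25 to 0.35, 59 to 63 called coding genes and 105 to 210 called genes in all. The summed level below 0.3 CPM was 1.29 to 1.36 CPM in WT and 2.17 to 2.57 CPM in Dp1Tyb. Genes near 0 changed sign: A930006K02Rik was −0.0058 with RLE, −0.00029 without a filter, −0.012 with DESeq2 and −0.15 to 0.15 with 1 library left out. In those fits H3f3a-ps2 ranged from −0.19 to 0.22, Gm9843 from −0.064 to 0.16, Gm7976 from −0.13 to 0.077, Gm15965 from −0.14 to 0.048, Gm16310 from −0.20 to 0.017, Gm2541 from −0.057 to 0.25 and 2810407A14Rik from −0.031 to 0.41. The cause was not tested.

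Whether the replicate numbers pair the libraries is not known. Deviations of same-numbered libraries correlated at −0.057 to 0.33, and 2 of 5 WT libraries correlated best with their own number. These values cannot decide it, and the main test was unpaired. With a replicate block, 4 non-coding genes were called (9430053O09Rik was not, adjusted p = 0.0543) and 318 genes in all. A total of 8 of 23 intervals held both no difference and 1.5-fold, and the parts of depth and of the spread between mice in their width were not tested.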
